A study of Rattus norvegicus with 6 samples.

Results

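Cholesterol is made from acetyl-CoA by a chain of enzymes that hepatocytes carry in large amounts, and the chain is controlled by the sterol content of the endoplasmic reticulum. When that membrane is poor in sterol, SCAP escorts the transcription factor SREBP2 (gene Srebf2) to the Golgi for cleavage, and the released fragment switches on the synthesis enzymes. When sterol is plentiful, the INSIG proteins hold SCAP back, and because Insig1 is itself an SREBP2 target, its mRNA commonly moves with those of the enzymes. The 32 genes described here were 18 synthesis enzymes, 4 sterol control genes (Insig1, Insig2, Scap and Srebf2), 7 genes of sterol transport and export, 2 esterification genes and Ggps1 of the isoprenoid branch. They were found by the RefSeq accession that each probe carries, which gave 60 of the 61657 non-control probes, and 32 of the 15284 genes named on the array. The questions asked were whether these genes differed between the 2 kinds of anaesthesia, and whether the SREBP2 targets followed Insig1 from rat to rat.

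Liver RNA of 6 male Sprague-Dawley rats, an outbred stock, aged 9 weeks, was measured on 1-colour arrays, 1 rat per array. In 3 rats the killing followed isoflurane, an inhaled anaesthetic, and in the other 3 it followed CO2/O2, a gas mixture that renders rodents unconscious. All 6 rats had corn oil by dosing at 5 mL/kg/day, and the labels conflict on its length, with 3 days in the design text and 9 weeks in the treatment protocol. No rats without anaesthesia or without corn oil, a source of dietary fat, were measured, so neither group is an untreated baseline.

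Values are log2 signal relative to the 75th percentile of the same array, so a value of 0 is that percentile, and differences are isoflurane minus CO2/O2. Where a gene had several probes, its value is that of the tested probe with the highest mean signal over the 6 arrays. Of the 32 genes, 30 were tested. Npc1l1, a sterol uptake protein of the intestine and, in some species, the bile canaliculus, was well above background on no array, and Soat1, a cholesterol-esterifying enzyme, on 1 isoflurane and 2 CO2/O2 arrays. The share of probes well above background was 53.4% to 60.6% on isoflurane arrays and 56.9% to 62.3% on CO2/O2 arrays. The hepatocyte markers Alb, Ttr, Hnf4a, Cyp2e1, Cps1 and Tat were all tested, with a median difference of -0.12, so the markers of the labelled tissue were present. As 1 slide with 1 scan time held all arrays, no slide or scan block could be fitted.

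Insig1 had the largest difference of the 30 tested genes, with a mean signal after isoflurane that was 47.1% of that after CO2/O2 (means taken on the log2 scale), while the enzymes of the pathway were split in sign. None of the 30 genes passed the test across all probes (limma, Benjamini-Hochberg adjusted p of 0.05), where 0.0% of the 10609 genes tested and 0.00866% of the 34637 probes tested did so. At an unadjusted p under 0.05 there was 1 of 30, Insig1, which was chosen with its difference known, against 7.58% of all genes. The values of the groups did not overlap for 4 of 30, against 14.2% of all genes. These were Fdft1, which was higher after isoflurane (1 of 30, against 6.01% of all genes), and Insig1, Npc2 and Ggps1, which were lower (3 of 30, against 8.16%). Of the 30, 15 had higher and 15 lower means after isoflurane, where 47.1% of all genes were higher. The median difference was -0.00, and that over all genes tested was -0.01.

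The promoters of the genes on which the results turn are shown first, as the 250 bases before the annotated start in RefSeq (build GRCr8), since SREBP2 acts at such sites together with the factors that bind CCAAT boxes and GC boxes. Capitals mark CCAAT on either strand and the E-box CACGTG, and the minus-strand genes are written along their own strand. Insig1 is the regulator, Hmgcs1 makes HMG-CoA near the head of the pathway, and Idi1 and Fdps are enzymes whose values moved together between rats.

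Insig1, chr4:8057770-8058019, minus strand: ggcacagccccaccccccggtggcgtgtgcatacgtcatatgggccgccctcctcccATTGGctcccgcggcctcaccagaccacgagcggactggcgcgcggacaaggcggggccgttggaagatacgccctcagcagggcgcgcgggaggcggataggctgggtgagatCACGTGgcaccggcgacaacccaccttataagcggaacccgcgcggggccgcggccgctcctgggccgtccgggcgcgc
Hmgcs1, chr2:53382054-53382303, plus strand: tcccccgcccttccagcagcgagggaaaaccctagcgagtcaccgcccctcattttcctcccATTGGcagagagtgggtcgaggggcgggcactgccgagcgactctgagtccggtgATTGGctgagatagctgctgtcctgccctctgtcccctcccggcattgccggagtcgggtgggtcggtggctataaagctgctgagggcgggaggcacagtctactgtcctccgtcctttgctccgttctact
Idi1, chr17:66547525-66547774, minus strand: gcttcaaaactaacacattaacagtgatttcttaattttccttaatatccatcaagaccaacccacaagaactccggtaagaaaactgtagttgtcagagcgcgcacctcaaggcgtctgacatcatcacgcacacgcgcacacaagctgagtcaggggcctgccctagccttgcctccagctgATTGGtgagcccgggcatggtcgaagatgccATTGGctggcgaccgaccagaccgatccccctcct
Fdps, chr2:176804817-176805066, minus strand: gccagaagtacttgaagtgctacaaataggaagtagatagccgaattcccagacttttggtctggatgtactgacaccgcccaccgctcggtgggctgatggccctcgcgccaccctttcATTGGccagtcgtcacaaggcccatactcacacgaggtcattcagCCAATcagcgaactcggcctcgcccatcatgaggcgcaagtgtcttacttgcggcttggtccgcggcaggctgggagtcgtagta

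A window was found for 27 of the 32 genes. CCAAT, on either strand, stood in the window of 21 of the 27, and of 12 of 15 synthesis enzymes, against 34.0% of 33469 windows in all. The GC box letters GGGCGG, on either strand, stood in 20 of the 27 and in 13 of 15 enzymes, against 30.5% of windows. The E-box CACGTG stood in 4 windows, those of Sc5d, Insig1, Scap and Abca1, against 5.59% of windows, and in Insig1 it began 79 bases before the start. A sterol regulatory element written as TCACNCCAC, searched on both strands, stood in none of the 27 windows and in 0.974% of all. The share over all windows need not hold for these genes, and other spellings of the element were not searched. The absence therefore does not show that these windows lack such an element. Matches of different motifs were counted separately, whether or not they overlapped, and a match describes the letters only.

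Insig1, which retains SCAP in the endoplasmic reticulum and helps direct sterol-dependent protein degradation there, was measured by 4 probes of 1 transcript (NM_022392). At its brightest probe it had 4.51, 4.09 and 4.47 in isoflurane rats 1, 2 and 3, against 5.42, 5.52 and 5.38 in CO2/O2 rats 1, 2 and 3. The groups lay apart, with a gap of 0.88 between the highest isoflurane and the lowest CO2/O2 rat, wider than the range of 0.42 among the isoflurane rats. The difference was -1.09 ± 0.13 (SE, n = 3 each), 2.12-fold lower after isoflurane, with a 95% interval from -1.41 to -0.77 (limma adjusted p = 0.324 over all probes). By unadjusted p Insig1 ranked 3 of 10609 genes, and 102 genes, or 0.961%, had a difference at least as large in either direction. As Insig1 was chosen with its difference known, its rank and values are a description only.

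The other 3 Insig1 probes read the same transcript and are not further replicates. Probe A_44_P143886 had 2.99, 2.45 and 2.99 after isoflurane, against 3.97, 3.99 and 3.83 after CO2/O2. Probe A_44_P406074 had 1.20, 0.70 and 1.13 after isoflurane, against 2.17, 2.30 and 1.99 after CO2/O2. Probe A_44_P547168 had -0.06, -0.57 and -0.07 after isoflurane, against 1.06, 1.10 and 0.90 after CO2/O2. Isoflurane rat 2 was lowest at all 4 probes, and at none of them did the groups overlap. Their differences were -1.12, -1.14 and -1.25, with limma adjusted p between 0.332 and 0.382. Isoflurane rats 2 and 3 were hybridised in another row of the slide than the other 4 rats. Blocking on slide row, which leaves isoflurane rat 1 at 4.51 against the 3 CO2/O2 rats, gave a difference of -0.94 (limma adjusted p = 0.762).

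**Figure D1:**
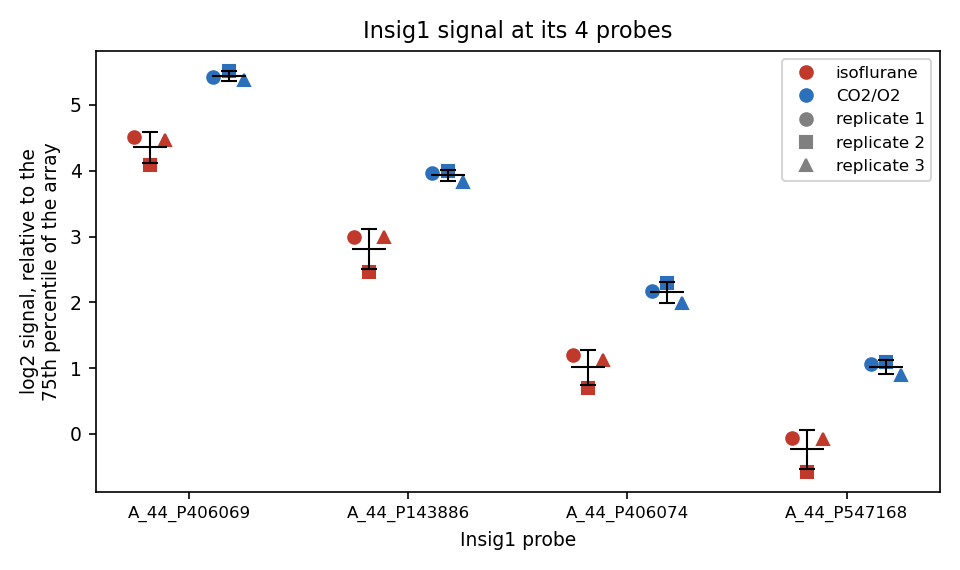
Insig1 at its 4 probes, as log2 signal relative to the array's 75th percentile (vertical axis), with 1 point per rat, isoflurane left of CO2/O2 at each probe, a line at each group's mean and whiskers of 1 SD. At every probe the 3 isoflurane rats lie below the 3 CO2/O2 rats, by 1.09 to 1.25 log2 units on the means.

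Markers of some non-parenchymal cells were lower in the same direction as Insig1, and those of others were not. All 10 tested Kupffer cell markers of 11 had lower means after isoflurane, with a median difference of -0.35, and 6 of them had an unadjusted p under 0.05, against 4.85% of genes in that direction. Their mean deviation lay between -0.22 and -0.10 in isoflurane rats and between -0.04 and 0.36 in CO2/O2 rats. All 6 tested lymphocyte markers of 10 were lower, with a median of -0.41, as were all 4 tested erythroid markers of 5, also with -0.41. Of 5 tested cholangiocyte markers 4 were lower, with a median of -0.33. Of 4 tested endothelial markers 3 were lower and 1 higher, with a median of -0.07, and of 5 stellate markers 3 were lower and 2 higher, with a median of -0.03. No marker of these lists passed the adjusted threshold. In whole liver, fewer cells of a type and less RNA per cell cannot be told apart, and the part of these cells in the Insig1 difference was not tested.

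The other sterol control genes had smaller differences than Insig1. Insig2, the second INSIG protein, had 4.34, 4.80 and 4.27 after isoflurane, against 4.50, 4.89 and 4.85 after CO2/O2, with overlapping groups. Its difference was -0.28 ± 0.18 (SE, 95% interval from -0.72 to 0.16). Srebf2 had 2.41, 2.70 and 2.19 after isoflurane, against 2.34, 2.13 and 2.19 after CO2/O2, a difference of 0.21 ± 0.15 with isoflurane rat 2 highest. A second Srebf2 probe gave 0.08, and 1 more was well above background on no array. Scap had the smallest difference of the 4, at -0.00 ± 0.10 (SE), with a 95% interval from -0.24 to 0.23. The difference between these genes' responses and that of Insig1 was not itself tested.

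The 18 synthesis enzymes were split evenly in sign, with 10 higher and 8 lower after isoflurane and a median difference of 0.01. Their differences ran from -0.36 for Dhcr7, the reductase of the last step, to 0.22 for Acat2, the thiolase that joins 2 acetyl-CoA units. Only Fdft1 had groups that did not overlap, 1 of 18 against 14.2% of all genes. With Stard4 and Srebf2 added, the 20 SREBP2 targets other than Insig1 were 11 higher and 9 lower, again with a median of 0.01. The median over the 18 enzymes moved between -0.16 without isoflurane rat 2 and 0.20 without isoflurane rat 3, so that its sign depended on single rats.

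Intervals were wide for several enzymes because rats of 1 group differed. For Idi1, the isomerase of the isoprenoid unit, the 95% interval of the difference ran from 0.51-fold to 2.03-fold. For Sqle, the squalene epoxidase that feeds sterol ring formation, it ran from 0.54-fold to 2.07-fold. For Hmgcs1 it ran from 0.61-fold to 1.61-fold. A difference the size of that of Insig1, 2.12-fold lower, lay outside all 3 of these intervals, taken at the brightest probes. It lay inside that of Lss, lanosterol synthase, which reached down to 0.46-fold. Other probes moved these limits. Idi1 probe A_44_P251944 reached down to 0.46-fold and Hmgcs1 probe A_44_P487240 to 0.47-fold, but Lss probe A_44_P334218 only to 0.51-fold. The lower limits at Idi1 probe A_43_P12843, Hmgcs1 probe A_43_P11890 and Sqle probe A_44_P365580 were 0.50-fold, 0.57-fold and 0.58-fold.

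Fdft1, squalene synthase, had 2.99, 3.09 and 2.94 after isoflurane, against 2.90, 2.79 and 2.89 after CO2/O2. The groups were separate, and the difference was 0.15 ± 0.08 (SE, limma adjusted p = 0.734). Its second probe, with -0.02, 0.31 and -0.11 after isoflurane, against -0.15, -0.43 and -0.28 after CO2/O2, was also separate and gave 0.35 ± 0.14 (limma adjusted p = 0.655). Both probes thus put Fdft1 higher after isoflurane, opposite in sign to Insig1, without passing the threshold. Dhcr7 had 2.45, 3.21 and 3.10 after isoflurane, against 3.49, 3.30 and 3.05 after CO2/O2, and its groups overlapped through CO2/O2 rat 3. Isoflurane rat 1 was lowest, and the Dhcr7 difference of -0.36 ± 0.23 (SE) rests on that rat. It was -0.13 without isoflurane rat 1, and -0.83 when slide row was blocked on, a fit that sets rat 1 alone against the CO2/O2 rats.

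A further 6 enzymes were also split in sign. Mvk and Pmvk, the kinases that phosphorylate mevalonate in turn, had differences of 0.18 ± 0.10 and -0.19 ± 0.13 (SE). Nsdhl and Hsd17b7, which act in removing methyl groups from the sterol ring, had 0.13 ± 0.11 and -0.13 ± 0.16, and a second Hsd17b7 probe gave 0.05. Ebp, a sterol isomerase, had -0.14 ± 0.16, and Sc5d, a sterol desaturase, had -0.11 ± 0.11. The groups overlapped in all 6.

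Transport, export and storage genes differed little between groups. Npc1, which carries cholesterol out of lysosomes, was higher at all 7 of its probes, by 0.08 to 0.23, and at 1 of them, A_44_P543718, the groups did not overlap (0.23, limma adjusted p = 0.637). Npc2, its soluble partner, had 2.78, 2.69 and 2.73 after isoflurane, against 2.93, 2.91 and 2.80 after CO2/O2. The partners therefore had opposite signs, and the Npc2 difference was -0.15 ± 0.08 (SE, limma adjusted p = 0.728). Soat2, the cholesterol-esterifying enzyme of hepatocytes, had 0.88, 1.31 and 1.46 after isoflurane, against 0.96, 0.98 and 0.81 after CO2/O2. Its difference of 0.30 ± 0.16 (SE) was the highest of the 30 genes, and blocking on slide row turned it to -0.04. Stard4, a soluble sterol carrier, gave -0.20, and Abca1, which passes cholesterol to high-density lipoprotein, gave 0.01. Ggps1, which makes geranylgeranyl diphosphate for protein prenylation, had -1.47, -1.58 and -1.57 after isoflurane, against -1.44, -1.42 and -1.26 after CO2/O2, and its second probe overlapped, with a difference of -0.04.

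**Figure D2:**
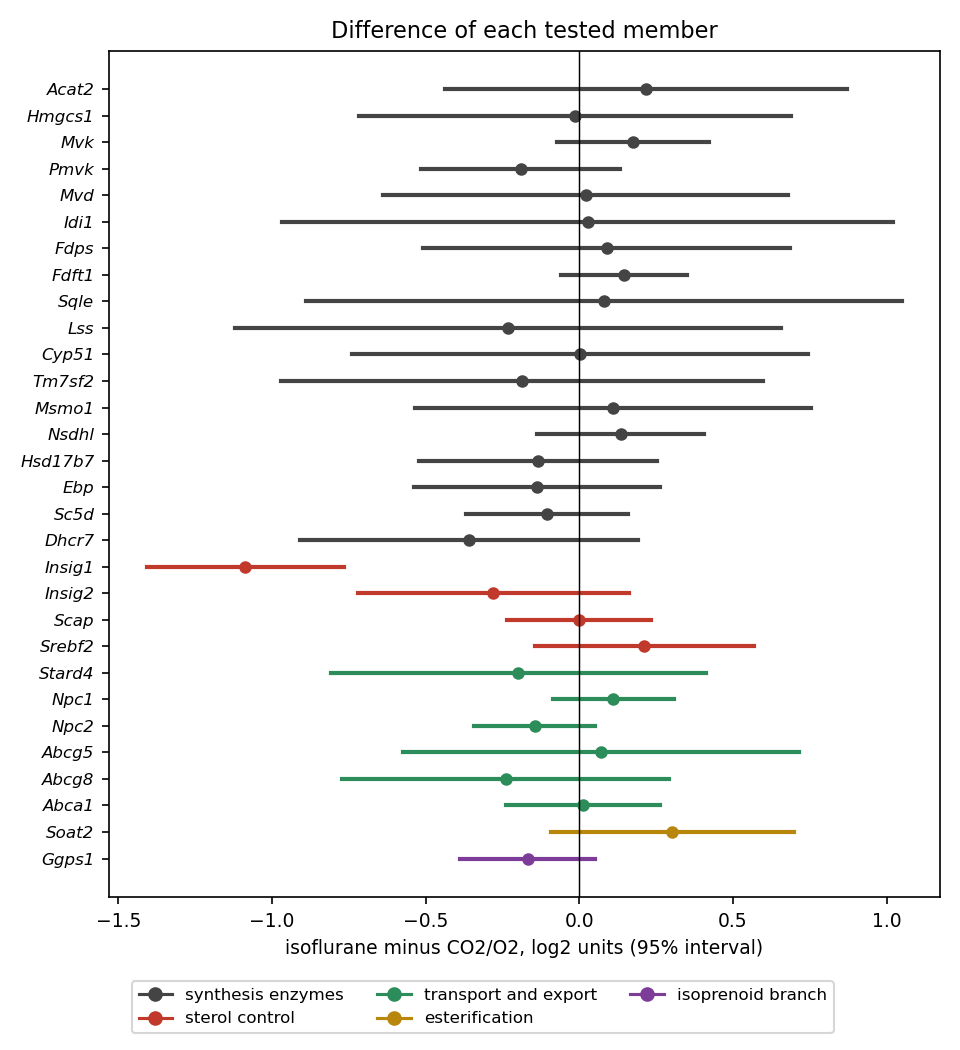
Difference between isoflurane and CO2/O2 means for the 30 tested genes (horizontal axis, log2 units), with points at the limma estimate and bars for its 95% interval, coloured by role. Insig1 stands at -1.09 with an interval below 0, and the intervals of the other 29 genes include 0.

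The larger variation in the enzymes was between rats of the same group, each on 1 array, so that rat and array cannot be told apart. Over the 6 arrays the synthesis enzymes had a median range of 0.82, against 0.41 for all genes, and a median SD within groups of 0.376, against 0.147. Idi1 had the widest range after Insig1, with 1.50, 2.09 and 0.74 in isoflurane rats 1, 2 and 3, against 2.05, 1.19 and 1.01 in CO2/O2 rats 1, 2 and 3, which is 2.55-fold from lowest to highest. Its highest rats were isoflurane 2 and CO2/O2 1, and its lowest was isoflurane 3. Sqle had 1.50, 2.37 and 1.10 after isoflurane, against 2.21, 1.37 and 1.16 after CO2/O2. Lss had 0.90, 1.56 and 0.35 after isoflurane, against 1.60, 1.27 and 0.64 after CO2/O2. In both enzymes the same 2 rats were highest and isoflurane rat 3 was lowest.

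This order recurred along the pathway. Isoflurane 2 and CO2/O2 1 were the highest rats for 7 of 18 enzymes, namely Mvd, which forms the isoprenoid unit, Idi1, Fdps, Sqle, Lss, the demethylase Cyp51 and the methylsterol oxidase Msmo1. This order was noticed in the values and is given as a description, with no test. The arrays of isoflurane 2 and CO2/O2 1 had the most outlier spots, at 60 and 49. They also had the smallest share of probes well above background in their group, at 53.4% and 56.9%. Isoflurane 3 had 34 outlier spots and a share of 55.7%. Whether array quality bears on the order was not tested. The 7 are 38.9% of the enzymes, against 4.69% of 10597 genes with a value on all arrays. Isoflurane 3 was lowest for 11 of 18, or 61.1%, against 22.8% of those genes. Of the 18 enzymes, 13 were above their own mean in isoflurane 2 and 3 in isoflurane 3, and 16 in CO2/O2 1. The gap between isoflurane rats 2 and 3 was 1.35 log2 units for Idi1, 1.27 for Sqle, 1.21 for Lss, 1.18 for Hmgcs1 and 1.06 for Cyp51, each wider than the Insig1 difference between groups except that of Cyp51. Among the 153 pairs of enzymes, 125 had a positive correlation over the 6 arrays, with a median of 0.463. These pairs share the same 6 arrays, and the values are a description.

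Not every enzyme kept that order at its brightest probe. Hmgcs1 had 6.09, 6.70 and 5.52 after isoflurane, against 6.10, 6.29 and 5.98 after CO2/O2, so that its spread lay mostly within the isoflurane group. Its probe A_43_P11890 had 3.91, 4.43 and 3.27 after isoflurane, against 4.15, 3.99 and 3.71 after CO2/O2. There, and at Hmgcs1 probe A_44_P487240, isoflurane 2 and CO2/O2 1 were highest and isoflurane 3 was lowest, so Hmgcs1 departed from the order at its brightest probe only. Acat2 had 2.52, 2.08 and 2.01 after isoflurane, against 2.34, 1.43 and 2.19 after CO2/O2, with isoflurane rat 1 highest and CO2/O2 rat 2 lowest. At its second probe CO2/O2 rat 1 was highest, at 2.43, then isoflurane rat 1, at 2.37, and CO2/O2 rat 2 was again lowest. Tm7sf2, a sterol reductase, was highest in isoflurane rat 1, at 5.96. Abcg5 and Abcg8, the paired transporters that export sterols into bile and are targets of the sterol-sensing receptor LXR, had another order. Abcg5 had 3.11, 3.09 and 3.90 after isoflurane, against 3.13, 3.11 and 3.64 after CO2/O2, highest in rat 3 of each group. The mean over the enzymes was lowest in isoflurane rat 3, but about level in CO2/O2 rats 2 and 3, at -0.12 and -0.14. The median deviation over the enzymes was lower in CO2/O2 rat 2, at -0.15, than in CO2/O2 rat 3, at -0.07. Abcg8 had -3.82, -3.97 and -3.17 after isoflurane, against -3.34, -3.58 and -3.32 after CO2/O2, highest in isoflurane rat 3 but about level in CO2/O2 rats 1 and 3. Its probe was dim, well above background on 2 isoflurane and 3 CO2/O2 arrays, and so passed the filter through the CO2/O2 group alone.

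**Figure D3:**
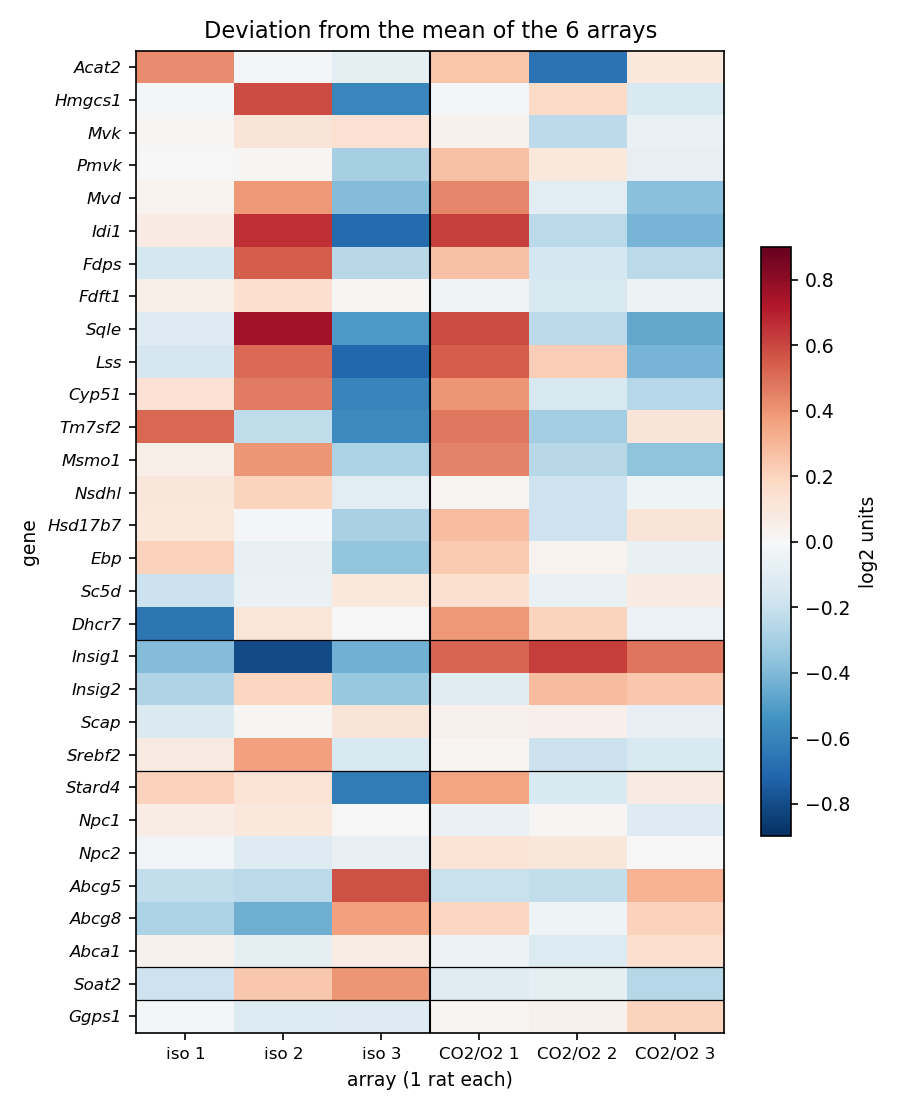
Deviation of each tested gene from its own mean over the 6 arrays (colour, log2 units), with genes in rows by role and rats in columns, isoflurane on the left. Of 18 enzyme rows, 7 have isoflurane 2 and CO2/O2 1 as their highest rats and 11 have isoflurane 3 as their lowest, and the Insig1 row divides by group.

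**Figure D4:**
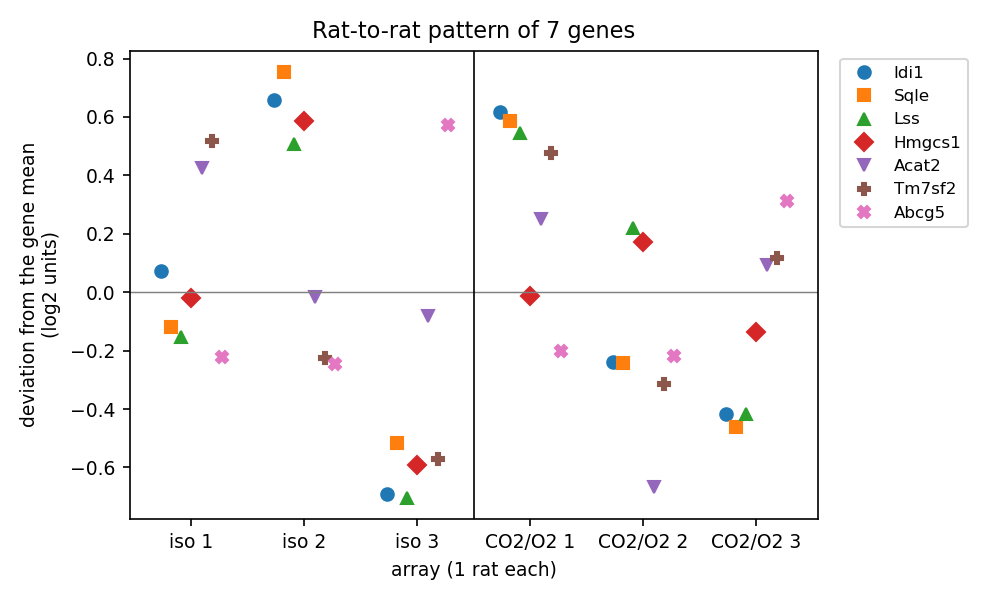
Deviation from the gene mean (vertical axis, log2 units) of Idi1, Sqle, Lss, Hmgcs1, Acat2, Tm7sf2 and Abcg5 in each rat, isoflurane on the left and CO2/O2 on the right. Idi1, Sqle and Lss are high in isoflurane 2 and CO2/O2 1 and low in isoflurane 3, where Abcg5 is highest.

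To ask whether the pathway moved as a unit, each gene was correlated over the 6 rats with Hmgcs1, and then with Sqle, with two-sided exact permutation tests whose smallest possible p is 0.00139. With Hmgcs1 the 17 other enzymes had a median Pearson r of 0.549, against -0.049 for all genes, and 1 of them, Lss, had r of at least 0.8, against 3.21% of all genes. Lss had r = 0.821 (exact permutation p = 0.0319, adjusted p = 0.663 over all genes) and Spearman rho = 0.829 (exact permutation p = 0.0583, adjusted p = 0.726). Without isoflurane rats 2 and 3, the arrays farthest from the median, the median r over the enzymes was 0.0218, so the relation with Hmgcs1 rests on those rats. Abcg5 and Abcg8 had r = -0.817 and -0.840 with Hmgcs1 (exact permutation p = 0.0264 and 0.0236, adjusted p = 0.656 for both). From the highest r down, they ranked 10144 and 10235 of 10596 genes. Without isoflurane rats 2 and 3 these r were -0.726 and -0.368, and the Abcg8 probe was the dim one described above. With Sqle as the anchor Abcg5 and Abcg8 had r = -0.695 and -0.543. No member was among the 20 genes most like Hmgcs1, of which the first 3 were Cck, Otos and Tmem141.

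With Sqle the likeness was closer. The median r of the other 17 enzymes was 0.653, against -0.096 for all genes, and 6 of the 17 had r of at least 0.8, against 2.68% of all genes. These were Idi1 (0.974), Fdps (0.973), Mvd (0.971), Msmo1 (0.966), Cyp51 (0.930) and Lss (0.887), and of the other members only Srebf2, at 0.813, reached that value. Their exact permutation p lay between 0.00139 and 0.0333, with adjusted p between 0.491 and 0.603. Idi1 and Cyp51 ranked the 6 rats exactly as Sqle did, with a Spearman rho of 1 (exact permutation p = 0.00278, adjusted p = 0.475). Without CO2/O2 rat 1 and isoflurane rat 2, the arrays farthest from the median, the median over the enzymes was 0.748. Idi1 was then at 0.960, Fdps at 0.958, Mvd at 0.996, Msmo1 at 0.853, Cyp51 at 0.924, Lss at 0.760 and Srebf2 at 0.625. Sc5d, Dhcr7 and Mvk were negative, at -0.989, -0.567 and -0.413. On these fewer arrays 6 of the 17 had r of at least 0.8, against 10.1% of all genes. No gene passed adjustment over all 10596 genes for either anchor, the smallest adjusted p being 0.613 for Hmgcs1 and 0.491 for Sqle. The 4 members Idi1, Fdps, Mvd and Msmo1 were among the 20 genes most like Sqle, and the first 3 others were Vgll4, Fasn and Rad54l2, over 6 arrays each.

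From rat to rat the enzymes were not in the order of Insig1. Since the Insig1 values fell into a separate cluster for each group, no correlation pooled over the 6 rats is given. Insig1 was lowest in isoflurane rat 2, at 4.09, where the mean deviation over the 18 enzymes was 0.25. In CO2/O2 rats 1, 2 and 3 Insig1 stayed between 5.38 and 5.52, while the mean over the enzymes was 0.30, -0.12 and -0.14. In isoflurane rats 1 and 3 Insig1 was 4.51 and 4.47, while that mean was 0.02 and -0.30. Rats with like Insig1 values therefore differed in their enzyme means. Within groups, the deviations of 16 of 18 enzymes from their group means had a negative correlation with those of Insig1, with a median of -0.512, against 0.100 for all genes. Without isoflurane rat 2 the median was 0.0094, with 8 of 18 negative, so that the negative sign rests on that rat.

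**Figure D5:**
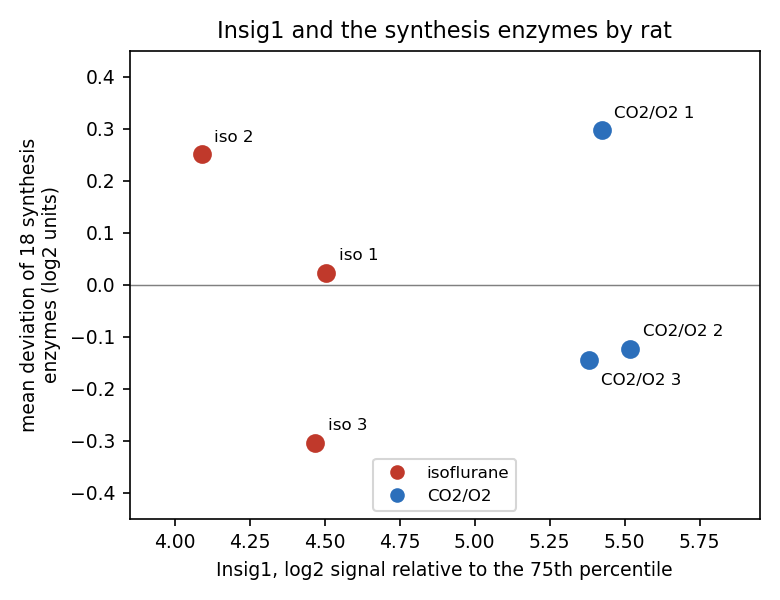
Insig1 signal at its brightest probe (horizontal axis, log2 relative to the array's 75th percentile) against the mean deviation of the 18 synthesis enzymes (vertical axis, log2 units), 1 point per rat. The groups are apart along the Insig1 axis, at 4.09 to 4.51 after isoflurane and 5.38 to 5.52 after CO2/O2, and overlap along the enzyme axis.

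Other genes of sterol sensing and handling, outside the 32, were taken from lists by function. Of 12 genes that process or degrade the proteins of sterol sensing, 9 were tested, with 4 higher and 5 lower after isoflurane and a median difference of -0.01. Tmem97, a sterol-responsive membrane protein that binds NPC1, had 3.24, 3.39 and 3.37 after isoflurane, against 3.23, 2.73 and 2.98 after CO2/O2, a difference of 0.35 ± 0.14 (SE, limma adjusted p = 0.655). Rnf139, a ubiquitin ligase of the endoplasmic reticulum, gave 0.13. All 15 further genes of sterol transport and LXR response were tested, with 3 higher and 12 lower and a median of -0.06. Lipa, the lysosomal acid lipase, had 4.82, 4.45 and 4.59 after isoflurane, against 5.01, 4.92 and 4.80 after CO2/O2, where isoflurane rat 1 overlaps CO2/O2 rat 3, with a difference of -0.29 ± 0.12 (SE, limma adjusted p = 0.661). Abcg1, a sterol exporter of macrophages and other cells, gave -0.20 ± 0.09 without overlap (limma adjusted p = 0.665). None of these genes passed the threshold.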

How the data were processed

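The authors hybridised Cy3-labelled RNA of 6 livers to 1-colour arrays and read them with Agilent Feature Extraction 10.7, per the submitters' processing notes. The deposited spot values are intensity values on a linear scale, corrected for background, per the file headers. The deposited value table holds, per array, a linear ratio to a number near the 75th percentile, with no centring, and was used as an alternative. The log2 intensity was reduced here by each array's 75th percentile, and 177 outlier spots were left out. Probes that the 3 arrays of either group all showed well above background were tested, two-sided, on all 6 arrays by the lmFit and eBayes functions of limma 3.58.1 (R 4.3.3), with Benjamini-Hochberg adjustment over 34637 probes. The 95% intervals use the moderated statistic. A gene took its brightest tested probe. Correlations and figures used Python 3.11.15 with scipy 1.17.1. The fit was checked on simulated data. Accessions were named through RefSeq (GRCr8), 27460 of 61657 probes matching 1 gene, and no position of a probe is given, since the headers name an older build.

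Named are all 32 members, with values in every rat for Insig1, members without overlap, the 6 with the widest range and the correlation anchors. Of each further list the 2 genes of largest moderated t are named, and of the genes most like an anchor the first 3 that are no members. Fnta and Rabggta were added as partner subunits after their values were seen. Other members' values beside these were chosen after they were seen. The members and lists were chosen with earlier results of these data known. The labels give separate rats, and 3 per group limit the precision. Deviations of replicates with the same number had correlations of 0.0994, -0.0197 and 0.0604, and those with different numbers had -0.133 to 0.0809. These values do not settle whether the numbers pair rats, and the main fit did not pair them.

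The alternatives were quantile normalization, centring on the median, normexp correction (offset of 50, on the median signal, the mean signal not being used here), the value table, other filters on dim probes, keeping outlier spots, a trended and robust eBayes, blocks for replicate number or slide row, averaging a gene's probes, Sqle as the anchor, and leaving out each array.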

Additional observations from a re-analysis of the deposited data

How the results depend on the processing

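The Insig1 difference stayed between -1.16 and -0.94 over 17 alternatives, leaving out each rat included, with limma adjusted p between 0.143 and 0.960, so it never passed the threshold. Of the other 29 members, none passed in any alternative and 17 took both signs. Of their 492 alternative values, 10 moved by at least 1 SD, of which 6 with the slide row as a block, including Tm7sf2 (0.43), Ebp (0.14), Sc5d (-0.25) and Scap (-0.13). The median difference of the synthesis enzymes lay between -0.16 and 0.20 when rats were left out, and their median r with Hmgcs1 between 0.442 and 0.708. The correlation of deviations from Insig1, a median of -0.512, lay between -0.691 and 0.0094 when rats were left out, the last without isoflurane rat 2, an alternative chosen after seeing the data. The 3 probes that passed became 5 with normexp, 1 with no filter on dim probes, 5 with trend and robust, and 2616 at an unadjusted p under 0.05. Leaving out 1 rat gave 1 to 20 probes, with 17 without isoflurane rat 1, 20 without CO2/O2 rat 3, 5 without isoflurane rat 2, and 1 without isoflurane rat 3 or CO2/O2 rat 1. The causes were not tested. With the replicate number as a block, although pairing by number was not established, 0 probes passed. Insig1 then had a difference of -1.09 (limma adjusted p = 0.441). With 3 rats per group the intervals are wide, and values of probes near background are uncertain.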

Other observations

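The non-sterol branch, which turns farnesyl and geranylgeranyl diphosphate into protein anchors, dolichol and ubiquinone, was measured by genes outside the 32. Of 11 listed genes, 10 were tested, with 4 higher and 6 lower after isoflurane and a median difference of -0.02. The 2 with the largest moderated t, Pggt1b and Rabggtb, were both beta subunits of geranylgeranyl transferases. The alpha subunits of these enzymes, Fnta and Rabggta, had differences of -0.004 and 0.07, with overlapping groups. Pggt1b had -2.54, -2.99 and -2.50 after isoflurane, against -1.79, -1.88 and -1.72 after CO2/O2, a difference of -0.88 ± 0.15 (SE, n = 3 each, limma adjusted p = 0.460). Rabggtb had 3.78, 3.64 and 3.95 after isoflurane, against 4.29, 3.996 and 4.46 after CO2/O2, a difference of -0.46 ± 0.15 (SE, n = 3 each, limma adjusted p = 0.605). Neither gene's groups overlapped and neither passed the threshold. They are 2 of 10 genes without overlap, both lower, against 14.2% of all genes without overlap and 8.16% that were lower without overlap. Isoflurane rat 2, lowest for Insig1, was lowest for both.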
